A study of Homo sapiens with 16 samples.

Results

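HSF1, the master transcription factor of the heat shock response, and 9 heat shock protein genes (HSPA1A, HSPA1B, HSPA8, HSPH1, HSP90AA1, HSPB1, DNAJB1, HSPD1 and HSPE1) were followed through 16 RNA-seq libraries of 2 human melanoma cell lines. The genes were listed by symbol, with earlier results of these data known, and all 10 were found among the 60676 Ensembl identifiers of the deposited count tables. All 10 also passed the filter on low counts, which left 19247 genes for the comparison of the lines. A101D is labelled as methionine dependent and MeWo as methionine independent, which means that MeWo grows when homocysteine takes the place of methionine. Each line gave 8 libraries, numbered as replicates 1 to 8, and the libraries were made with a strand-keeping kit for total RNA. All cultures had high-glucose DMEM with 5% dialyzed serum, 4 mM glutamine, 1 mM pyruvate, 150 µM cystine and penicillin with streptomycin. To this base either methionine (200 µM, the control) or homocysteine (200 µM, without methionine) was added, and the labels do not say which replicate numbers received which. Each group is a single established line, no normal melanocytes were included, and no label says that the libraries came from separate cultures, so p-values measure only the spread between these libraries.

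Heat shock proteins are molecular chaperones that bind unfolded proteins, keep them from aggregating and help them fold. In unstressed cells HSF1 is held in an inactive state by chaperones, and under heat or other protein-damaging stress it forms trimers, binds heat shock elements in promoters and switches on the inducible chaperone genes. The cytosolic machine joins HSP70 proteins (HSPA8, which is made constitutively, and the stress-inducible HSPA1A and HSPA1B) with J-domain partners such as DNAJB1 and with the exchange factor HSPH1, and it hands clients on to HSP90 (HSP90AA1). HSPB1 is a small heat shock protein that holds unfolded clients, and HSPD1 with its lid HSPE1 forms the folding chamber of mitochondria.

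A heat shock element is built from inverted repeats of GAA, and the stretches upstream of the members that hold such repeats are shown. They are matches of letters only, and binding of HSF1 to them was not measured. The 250 bases before each start site in the RefSeq promoter table (GRCh38.p14) were searched on both strands for a pair of units (GAANNTTC or TTCNNGAA) and for runs of 3 units (GAANNTTCNNGAA or TTCNNGAANNTTC), each of which contains the shorter forms. The table held 9 members, with no entry for HSF1. A pair of units lay upstream of 7 of the 9 (HSPA1A, HSPA1B, HSPA8, HSP90AA1, HSPB1, DNAJB1 and HSPD1), against 14% of the 27305 genes in the table. Runs of 3 units lay upstream of 3 of the 9 (HSPA8, HSP90AA1 and HSPD1), against 0.557% of all genes in the table. The windows of HSPH1 and HSPE1 held neither form. That of HSPE1 begins at chr2:197500129, and the HSPD1 stretch at chr2:197500061-197500090 lies just beyond this edge, outside the bases searched for HSPE1. The stretches below are each 30 bases, with matched bases in capitals, in the direction of transcription.
HSPA8: gcgggccccTTCTGGAAGGTTCtaagatag
HSPA8, farther upstream: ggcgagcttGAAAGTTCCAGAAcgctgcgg
HSPA1A: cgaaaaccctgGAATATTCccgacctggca
HSPA1B: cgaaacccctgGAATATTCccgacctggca
HSP90AA1: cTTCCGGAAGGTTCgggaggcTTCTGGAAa
HSPD1: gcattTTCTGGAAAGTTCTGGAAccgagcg
DNAJB1: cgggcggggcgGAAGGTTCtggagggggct
DNAJB1, nearer the start: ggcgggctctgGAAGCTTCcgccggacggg
HSPB1: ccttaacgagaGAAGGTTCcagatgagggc
The HSPA8 matches begin 55 and 230 bases before the start used, at chr11:123062171-123062200 and chr11:123062346-123062375 on the minus strand. Both lie in sequence that GENCODE v29 also annotates as exon of HSPA8 transcripts with other starts. The HSP90AA1 stretch (chr14:102087104-102087133, minus strand) and the HSPD1 stretch (chr2:197500061-197500090, minus strand) likewise overlap annotated exons, and the latter overlaps both HSPD1 and HSPE1. The DNAJB1 stretches (chr19:14518456-14518485 and chr19:14518426-14518455, minus strand) lie in introns of longer DNAJB1 transcripts and of TECR on the other strand. The stretches of HSPA1A (chr6:31815426-31815455), HSPA1B (chr6:31827622-31827651) and HSPB1 (chr7:76302480-76302509), all on the plus strand, lie in no annotated gene. The windows of HSPA1A and HSPA1B were 93.6% identical.

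Depth was alike, with totals of 28910881 to 38961862 for A101D and 31217443 to 38722489 for MeWo. The values below are CPM, counts in a library of 1e6 after the totals were scaled by trimmed mean of M-values (TMM) factors. SOX10, a lineage factor of pigment cells, stood at 356 to 407 CPM in A101D and 430 to 481 in MeWo, and all 7 melanocyte lineage markers were tested. TYR, the enzyme that starts melanin synthesis, was at only 1.10 to 1.76 CPM in A101D beside 282 to 318 in MeWo. SOX10, MITF, MLANA and PMEL were also higher in MeWo, while DCT (1260 to 1883 CPM in A101D, 422 to 555 in MeWo) and S100B (508 to 696, and 121 to 138) were lower. That makes 5 markers higher and 2 lower, where 38.5% of all genes tested were higher in MeWo and 40.5% lower. The 10 markers of other cell types summed to 27.9 to 37.6 CPM in A101D and 9.79 to 11.6 in MeWo, and PTPRC, CD3E, EPCAM and KRT5 were at or near 0 in every library. The libraries of A101D fell into replicates 1 to 4 and 5 to 8, which differed without overlap at many genes, so values are given for these 2 sets of numbers. No label explains the split, the sets were taken up with these data known, and they were compared by description only.

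Counted per kilobase of annotated exon, HSPA8 was the most abundant member in both lines and in both sets of replicates. In replicates 1 to 4 its median was 563 CPM per kilobase in A101D and 593 in MeWo, and the libraries of the lines overlapped. HSPD1, HSPB1 and HSP90AA1 came next, at 190, 156 and 97.0 CPM per kilobase in A101D replicates 1 to 4. In MeWo replicates 1 to 4 that order was HSP90AA1 at 243, HSPD1 at 210 and HSPB1 at 110 CPM per kilobase. By these counts the inducible HSPA1A and HSPA1B were the lowest members in A101D, at 15.9 and 11.4 CPM per kilobase in replicates 1 to 4. In MeWo replicates 1 to 4, HSF1 was lowest by this measure, at 21.0 CPM per kilobase, and HSPA1B stood at 23.3. The length used was that of all annotated exons together, 5307 bases for HSF1, whose longest coding transcript has 2142. For HSPA1B both lengths are 2521 bases, so the rank of HSF1 depends on the length chosen. Of the 50-base words of the HSPA1A and HSPA1B transcripts, 72.6% and 73.5% also occur in another gene. How reads that map to several genes were treated is not known, so the ranks of these copies are uncertain. In A101D replicates 5 to 8 the members moved closer together, with HSPA8 at 166 and HSPB1 at 96.1 CPM per kilobase. HSPB1 overlapped there with HSPD1, which ran from 82.5 to 97.5 CPM per kilobase, and HSPH1 (25.1 to 28.4) overlapped with HSF1 (25.7 to 26.3). Such overlaps between genes also depend on the length chosen, which for HSPH1 was 8390 bases, while its longest coding transcript has 5191.

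**Figure D1:**
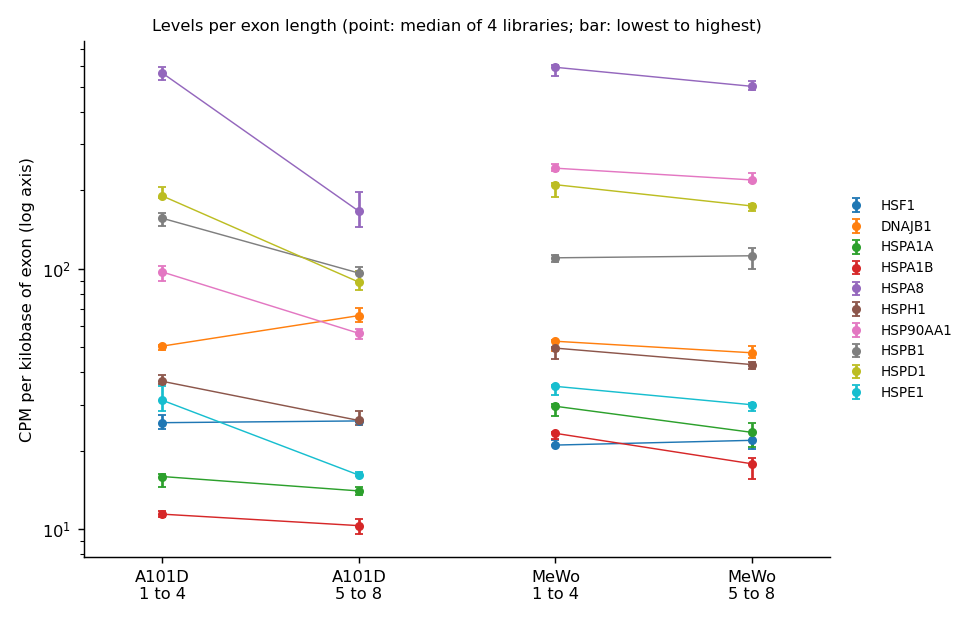
Levels of the 10 members in CPM per kilobase of exon on a log axis, for replicates 1 to 4 and 5 to 8 of each line; points are medians of 4 libraries, bars run from the lowest to the highest, and lines join the sets of a line. HSPA8 drops from 563 to 166 between the A101D sets, DNAJB1 goes from 50.4 to 66.0, and the MeWo sets stay close.

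Together the 10 members took 0.480% to 0.510% of all counts in A101D replicates 1 to 4 and 0.228% to 0.260% in A101D replicates 5 to 8. In MeWo they took 0.576% to 0.607% and 0.522% to 0.553%. HSPA8 alone made up 52.9% to 54.3% of the summed members in A101D replicates 1 to 4, and 32.2% to 37.7% in A101D replicates 5 to 8. In MeWo that share was 45.5% to 47.2% over all 8 libraries. In bulk libraries, fewer cells that express a gene and less of its RNA per cell cannot be told apart.

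**Figure D2:**
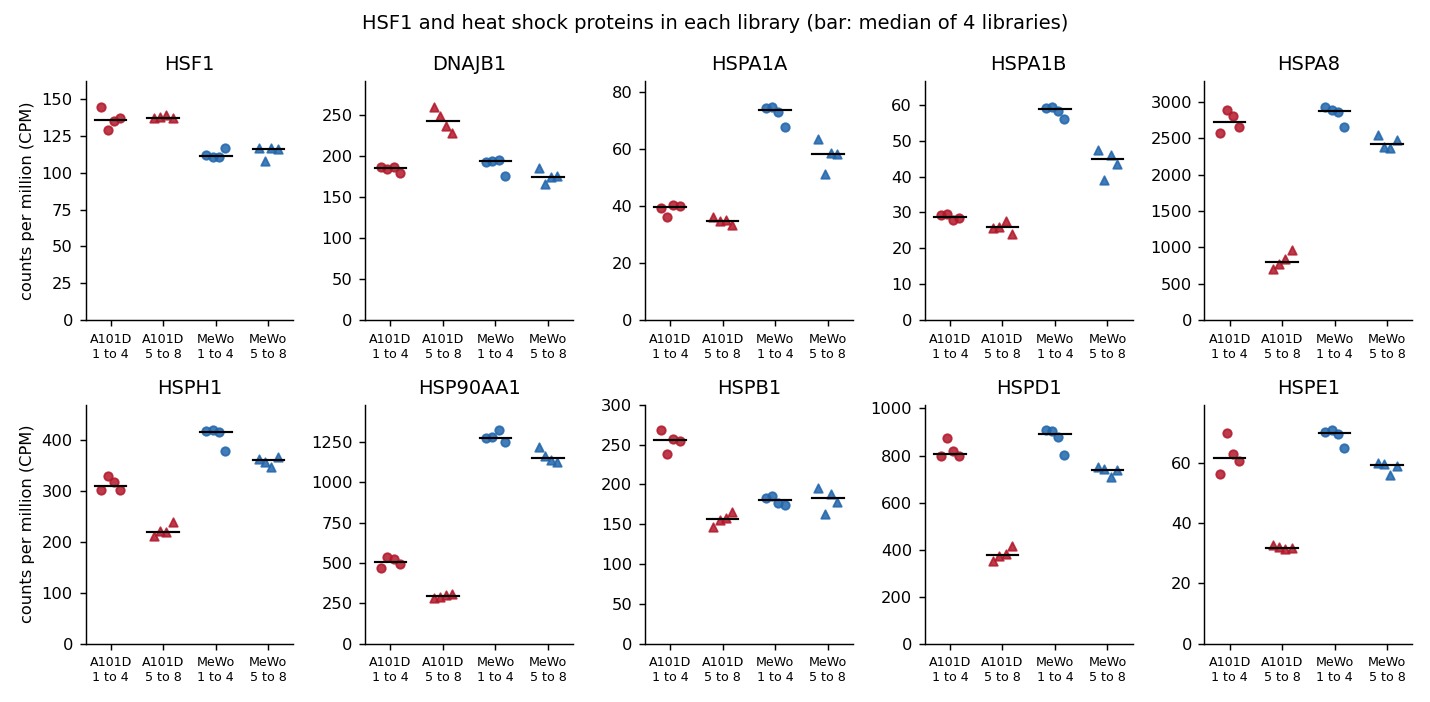
CPM of each member in every library; each panel starts at 0, circles are replicates 1 to 4, triangles are replicates 5 to 8, and the bar is the median of 4 libraries. The A101D triangles lie below the circles for 8 members, above them for DNAJB1 and among them for HSF1.

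HSF1 itself differed little. In A101D it stood at 145, 129, 135 and 137 CPM in replicates 1 to 4, and at 137, 138, 139 and 137 in replicates 5 to 8. In MeWo it stood at 112, 111, 111 and 117 CPM in replicates 1 to 4, and at 117, 108, 117 and 116 in replicates 5 to 8. Every MeWo library lay below every A101D library, while the sets of replicates overlapped within each line. The difference between the lines was a log2 fold change (MeWo minus A101D) of -0.27 ± 0.03 (SE, n = 8 per line, limma-voom adjusted p = 3.47e-07). Within replicates 1 to 4 it was -0.25 ± 0.04 and within replicates 5 to 8 it was -0.23 ± 0.03 (limma-voom adjusted p = 1.25e-06 and 1.17e-06). HSF1 RNA was thus 1.21-fold higher in A101D over all libraries, and its ratio of medians between the replicate sets was 1.01 in A101D and 1.04 in MeWo. These are RNA levels, and the activity of HSF1 is set largely after its protein is made.

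HSPA8 (chr11:123057489-123063230), the constitutive cytosolic HSP70 that also uncoats clathrin vesicles, showed the widest spread of any member. A101D replicates 1 to 4 held 2578, 2884, 2806 and 2652 CPM, and replicates 5 to 8 held 702, 770, 840 and 957. MeWo replicates 1 to 4 held 2937, 2887, 2868 and 2659 CPM, and replicates 5 to 8 held 2553, 2381, 2363 and 2476. The A101D replicates 5 to 8 were low, all other libraries were high, and the A101D median was 3.39-fold higher in replicates 1 to 4 than in 5 to 8. The same ratio in MeWo was 1.18, also without overlap. In replicates 1 to 4 the lines overlapped, and the log2 fold change of 0.08 ± 0.04 did not pass the threshold (limma-voom adjusted p = 0.0551). In replicates 5 to 8, HSPA8 was 3.08-fold higher in MeWo (log2 fold change 1.62 ± 0.09, n = 4 per line, limma-voom adjusted p = 7.66e-07). The fit over all 16 libraries gave 0.82 ± 0.31 with an adjusted p of 0.0222 (limma-voom), a value that averages over unlike sets. In replicates 1 to 4 the call depended on the processing: the adjusted p was 0.0108 with upper-quartile factors, 0.0269 with total counts and 0.000119 without MeWo replicate 4.

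HSPA1A (chr6:31815464-31817946) and HSPA1B (chr6:31827735-31830255), neighbouring copies that encode the stress-inducible HSP70, were far less abundant. HSPA1A stood at 39.1, 36.1, 40.3 and 39.8 CPM in A101D replicates 1 to 4 and at 35.9, 34.6, 34.9 and 33.4 in replicates 5 to 8. In MeWo it stood at 74.1, 74.7, 72.9 and 67.5 CPM, and at 63.3, 51.2, 58.5 and 58.0. All MeWo libraries lay above all A101D libraries, and HSPA1A was 1.76-fold higher in MeWo (log2 fold change 0.81 ± 0.08, limma-voom adjusted p = 3.28e-08). HSPA1B had a median of 27.8 CPM over the A101D libraries (lowest 24.1, highest 29.6) and of 51.7 over the MeWo libraries (39.0 and 59.5). It was 1.85-fold higher in MeWo (log2 fold change 0.89 ± 0.09, limma-voom adjusted p = 6.67e-08). Since 72.6% of the 50-base words of the HSPA1A transcript also occur in another gene, chiefly HSPA1B, reads can be split between the copies or dropped. Each count is therefore uncertain, and the level of their sum is too if such reads were dropped. With the copies summed, the log2 fold change was 0.85 over all libraries, 0.97 in replicates 1 to 4 and 0.78 in replicates 5 to 8, each past the threshold. The sum had a MeWo median of 132 CPM in replicates 1 to 4 and 103 in replicates 5 to 8. Its A101D medians were 68.2 and 61.1. The A101D step between replicate sets was small for each copy (log2 ratio of medians -0.18 and -0.15), and with upper-quartile factors or total counts both copies overlapped.

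HSPH1 (chr13:31134974-31162388), the HSP110 that removes ADP from HSP70 and works with it in taking aggregates apart, was likewise lowest in A101D replicates 5 to 8, and its highest levels were in MeWo. It held 301, 328, 317 and 302 CPM in A101D replicates 1 to 4 and 211, 220, 218 and 238 in replicates 5 to 8. In MeWo it held 417, 418, 414 and 377 CPM, and 362, 356, 347 and 366. MeWo lay above A101D in every library, by 1.45-fold over all of them (log2 fold change 0.54 ± 0.10, limma-voom adjusted p = 7.36e-05). The difference was 0.40 ± 0.04 within replicates 1 to 4 and 0.73 ± 0.03 within replicates 5 to 8, both past the threshold. The A101D median was 1.41-fold higher in replicates 1 to 4 than in 5 to 8.

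DNAJB1 (chr19:14514770-14529770), the J-domain protein that delivers clients to HSP70 and starts its ATP cycle, went the other way. In A101D it stood at 186, 184, 186 and 179 CPM in replicates 1 to 4 and at 260, 248, 237 and 228 in replicates 5 to 8. In MeWo it stood at 193, 194, 195 and 176 CPM, and at 185, 166, 174 and 175. A101D replicates 5 to 8 were thus the high libraries, 1.31-fold above replicates 1 to 4 by their medians, while the MeWo sets overlapped. HSPA8 reads per DNAJB1 read went from 13.8 to 15.7 in A101D replicates 1 to 4 to a median of 3.33 in replicates 5 to 8, against 13.6 to 15.2 in MeWo. In replicates 1 to 4 the difference between the lines was 0.06 ± 0.04 on the log2 scale and did not pass the threshold (limma-voom adjusted p = 0.136). In replicates 5 to 8, DNAJB1 was lower in MeWo by a log2 fold change of -0.44 ± 0.04 (limma-voom adjusted p = 3.77e-10). Over all libraries the log2 fold change was -0.22 ± 0.08 (limma-voom adjusted p = 0.0205). Without MeWo replicate 4, DNAJB1 in replicates 1 to 4 was called higher in MeWo (0.12, adjusted p = 0.00167, limma-voom), as it was with upper-quartile factors (0.07, adjusted p = 0.0417).

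HSP90AA1 (chr14:102080738-102139699), the inducible cytosolic HSP90 that stabilizes kinases and steroid receptors, had the largest difference between the lines of any member. In A101D it stood at 470, 536, 526 and 492 CPM in replicates 1 to 4 and at 281, 290, 302 and 309 in replicates 5 to 8. In MeWo it stood at 1274, 1278, 1322 and 1247 CPM, and at 1217, 1164, 1136 and 1126. No A101D library reached the level of a MeWo library, and the log2 fold change over all libraries was 1.66 ± 0.14, or 3.16-fold (limma-voom adjusted p = 5.83e-09). It was 1.36 ± 0.04 within replicates 1 to 4 and 2.01 ± 0.03 within replicates 5 to 8. The A101D median was 1.72-fold higher in replicates 1 to 4 than in 5 to 8, and the MeWo ratio was 1.11. HSP90AB1, the constitutive partner gene, was 0.67 ± 0.16 higher in MeWo on the log2 scale (limma-voom adjusted p = 0.000800). Reads of HSP90AA1 per read of HSP90AB1 were 0.253 to 0.284 over the A101D libraries and 0.495 to 0.570 over the MeWo libraries. That ratio changed little between the A101D sets, since HSP90AB1 went from a median of 1908 to 1054 CPM.

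HSPB1 (chr7:76302544-76304295), the small heat shock protein also called HSP27, changed its order between the lines. A101D replicates 1 to 4 held 268, 238, 257 and 254 CPM, and replicates 5 to 8 held 147, 156, 158 and 165. MeWo held 183, 185, 177 and 174 CPM, and 196, 163, 188 and 178. A101D was high in replicates 1 to 4 and low in replicates 5 to 8, with MeWo between, and the MeWo sets overlapped. Within replicates 1 to 4, HSPB1 was lower in MeWo by a log2 fold change of -0.48 ± 0.04 (limma-voom adjusted p = 5.16e-12). Within replicates 5 to 8, it was higher in MeWo by 0.24 ± 0.05 (limma-voom adjusted p = 9e-05), with an overlap of libraries. Over all libraries the value was -0.15 ± 0.13 and did not pass the threshold (limma-voom adjusted p = 0.302). The A101D ratio of medians, replicates 1 to 4 over 5 to 8, was 1.63.

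HSPD1 (chr2:197486581-197516737) and HSPE1 (chr2:197499994-197503457), the barrel and the lid of the mitochondrial chaperonin, are transcribed from a shared start region in opposite directions. HSPD1 held 798, 873, 819 and 796 CPM in A101D replicates 1 to 4 and 350, 372, 381 and 414 in replicates 5 to 8. In MeWo it held 907, 903, 879 and 804 CPM, and 753, 742, 710 and 737. The A101D replicates 5 to 8 stood apart below all other libraries, with a ratio of medians of 2.15. HSPE1 held 56.3, 69.8, 63.0 and 60.4 CPM in A101D replicates 1 to 4 and 32.7, 32.1, 31.5 and 31.6 in replicates 5 to 8. In MeWo it held 70.3, 70.7, 69.4 and 64.7 CPM, and 60.0, 59.6, 56.0 and 59.0. Its A101D ratio of medians was 1.94, so both genes stepped in the same direction, and there were 10.7 to 14.2 HSPD1 reads per HSPE1 read in A101D and 12.4 to 12.9 in MeWo.

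Between the lines, HSPD1 differed by 0.99 ± 0.04 on the log2 scale in replicates 5 to 8 and HSPE1 by 0.91 ± 0.04, both higher in MeWo (limma-voom adjusted p = 3.25e-17 and 6.95e-16). In replicates 1 to 4 the values were 0.11 ± 0.04 and 0.17 ± 0.05, with overlapping libraries (limma-voom adjusted p = 0.0134 and 0.00362). The smaller differences were not stable: leaving out A101D replicate 1 gave 0.05 for HSPD1 and 0.07 for HSPE1 (adjusted p = 0.210 and 0.150, limma-voom). Leaving out A101D replicate 4 gave 0.05 and 0.11 (adjusted p = 0.218 and 0.0741, limma-voom). HSPD1 also lost its call without A101D replicate 3 (adjusted p = 0.117), without MeWo replicate 2 (0.0939) and with no low-count filter (0.180, all limma-voom). Over all libraries, both genes had a log2 fold change of 0.52, with an SE of 0.20 for HSPD1 and 0.17 for HSPE1 (limma-voom adjusted p = 0.0247 and 0.0113).

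Over all 16 libraries, 7 members were higher in MeWo, where 38.5% of all genes tested were. HSF1 and DNAJB1 were lower in MeWo, as were 40.5% of all genes tested, and HSPB1 did not pass. The share called was thus high among all genes, and the members' counts are read against that. The median log2 fold change of the members was 0.53, beside -0.02 over all genes tested. The lines did not overlap for 5 members (HSF1, HSPA1A, HSPA1B, HSPH1 and HSP90AA1), against 57.7% of all genes tested. With a threshold of 0.01, HSPA8, HSPD1, HSPE1 and DNAJB1 lost their calls, which left 4 members higher and 1 lower.

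Within replicates 1 to 4, 6 members were higher and 2 (HSF1 and HSPB1) were lower in MeWo, against 39.7% and 41.8% of all genes tested. The lines did not overlap for 6 members, against 76.4% of all genes tested, and the members' median log2 fold change was 0.14. Within replicates 5 to 8, 8 members were higher and 2 (HSF1 and DNAJB1) were lower, against 41% and 44.4% of all genes tested. The lines did not overlap for 9 members, with HSPB1 the exception, against 80.7% of all genes tested, and the median was 0.78. HSPA8, HSPD1, HSPE1 and HSP90AA1 each had a larger log2 fold change in replicates 5 to 8 than in 1 to 4. MeWo was higher for HSPA1A, HSPA1B, HSPH1 and HSP90AA1, and lower for HSF1, in both sets. Whether the effect on HSPB1 or any other member differs between the sets was not tested.

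**Figure D3:**
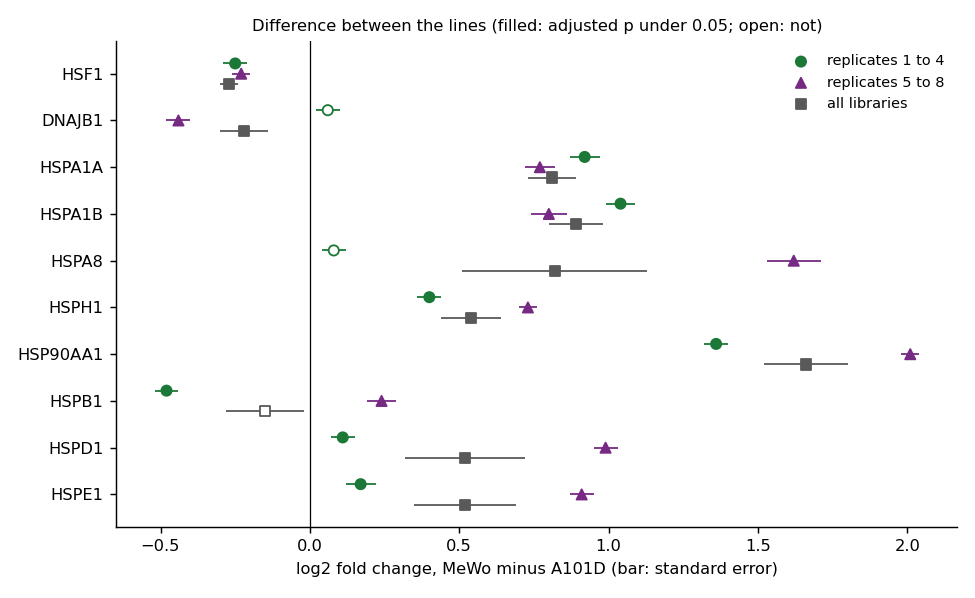
Log2 fold change of each member, MeWo minus A101D, with its standard error, in replicates 1 to 4 (circles), replicates 5 to 8 (triangles) and all 16 libraries (squares); filled points passed an adjusted p of 0.05. HSPA8, HSPD1 and HSPE1 lie near 0 in replicates 1 to 4 and between 0.91 and 1.62 in replicates 5 to 8, HSPB1 lies on opposite sides of 0, and HSF1 stays between -0.27 and -0.23.

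Within A101D, replicates 5 to 8 lay below replicates 1 to 4 without overlap for 8 members, where 30.9% of the 19673 genes that passed the filter did. That count holds for TMM factors. HSPA1A overlapped with median-of-ratios factors, and HSPA1A and HSPA1B with upper-quartile factors or total counts. DNAJB1 lay above, as did 33.3% of the genes, and HSF1 overlapped. The steps were unequal: the ratio of medians, replicates 1 to 4 over 5 to 8, was 3.39 for HSPA8, 2.15 for HSPD1, 1.94 for HSPE1, 1.72 for HSP90AA1, 1.63 for HSPB1 and 1.41 for HSPH1. It was 1.14 for HSPA1A and 1.11 for HSPA1B, so the constitutive HSP70 gene and the inducible copies were unlike. HSPA8 therefore went from 37.8 to 43.9 reads per read of HSPA1A and HSPA1B together to 11.4 to 16.6. The members' median log2 ratio was -0.60, beside 0.03 over all genes that passed.

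Within MeWo, replicates 5 to 8 lay below replicates 1 to 4 without overlap for 7 members, where 10.1% of the 18196 genes that passed the filter did. No member lay above, beside 9.14% of the genes, and HSF1, HSPB1 and DNAJB1 overlapped. The ratios of medians, replicates 1 to 4 over 5 to 8, were small and alike, from 1.11 for HSP90AA1 to 1.31 for HSPA1B. HSPA1A (1.26) and HSPA1B had the largest, and HSPD1, HSPE1 (1.18), HSPA8 (1.18) and HSPH1 (1.16) followed. The order of the members was thus another than in A101D, where HSPA1A and HSPA1B had the smallest ratios of those that lay below. The median log2 ratio of the members was -0.22, beside 0.01 over all genes that passed.

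**Figure D4:**
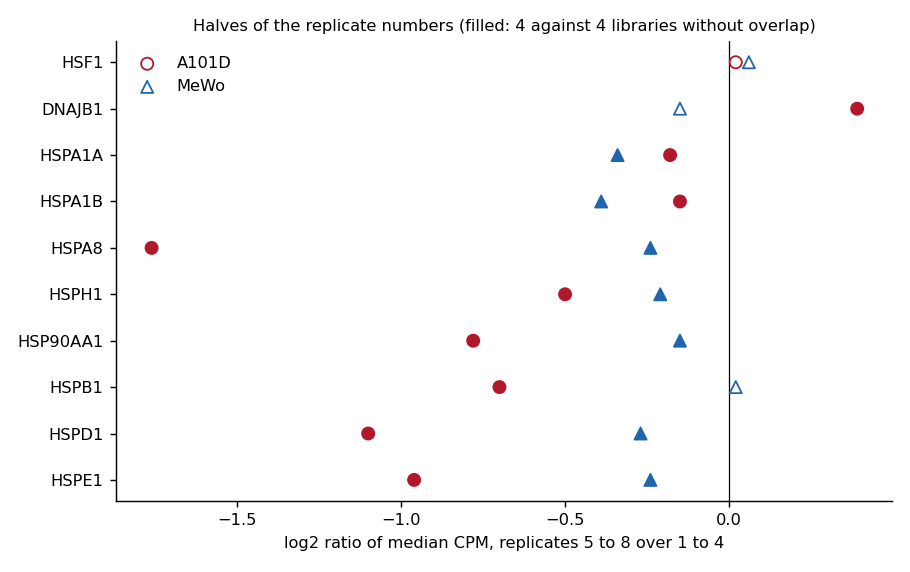
Log2 ratio of median CPM, replicates 5 to 8 over 1 to 4, for each member in A101D (circles) and MeWo (triangles); filled points had no overlap between the 4 and 4 libraries. A101D runs from -1.76 for HSPA8 to 0.39 for DNAJB1, and MeWo from -0.39 for HSPA1B to 0.06 for HSF1.

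Other values moved with the A101D sets of replicates. The summed markers of other cell types reached 35.1 to 37.6 CPM in replicates 1 to 4, and replicates 5 to 8 had 27.9 to 31.7. Among them ACTA2, an actin of smooth muscle, went from 30.2 to 31.9 CPM to 9.21 to 12.4, and VWF, an endothelial gene, from 3.10 to 4.24 to 14.3 to 17.9. Mitochondrial genes took 1.71% to 1.92% of counts in the former set and 1.93% to 2.33% in the latter. From 31281 to 33107 genes had a count in the former and from 34020 to 34607 in the latter. Their part in the members' values was not tested.

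The counts in the gene lists that follow are to be read against all genes: 38.5% of genes tested were higher and 40.5% lower in MeWo over all libraries, and 33.3% lay above and 30.9% below in A101D replicates 5 to 8 (9.14% and 10.1% in MeWo). The rest of the HSF family was read beside HSF1. HSF2, a relative that can form mixed trimers with HSF1, lay at 18.4 to 25.6 CPM among A101D libraries and 23.4 to 26.6 among MeWo libraries, and was 0.19 ± 0.06 higher in MeWo on the log2 scale (limma-voom adjusted p = 0.00995). HSF4, best known from the eye lens, was 1.23 ± 0.11 higher in MeWo. Its A101D median went from 16.9 CPM in replicates 1 to 4 to 10.9 in replicates 5 to 8. HSBP1, a small protein that binds HSF1, was at a median of 232 CPM in A101D and 220 in MeWo and did not pass the threshold (log2 fold change -0.05, limma-voom adjusted p = 0.488). HSBP1L1, named for its likeness to HSBP1, was at 4.52 to 6.92 CPM in A101D and 35.8 to 42.0 in MeWo (log2 fold change 2.83 ± 0.08). Of the 6 genes of this list, 5 were tested over all libraries, 3 were higher in MeWo and 1 was lower.

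Among 10 other HSP70 and HSP110 genes, all tested, 5 were higher and 4 lower in MeWo (38.5% and 40.5% of all genes), with a median log2 fold change of 0.24. HSPA2, best known from the testis, was at 0.107 to 0.795 CPM in A101D and 24.2 to 28.2 in MeWo (log2 fold change 5.70 ± 0.23). HSPA13, an HSP70 of the endoplasmic reticulum and microsomes, was at -0.72 ± 0.21, the lowest of those with a mean of at least 10 CPM, and HSPA6, below that mean, was at -1.56 ± 0.32. In A101D, 5 of the 10 lay above and 5 below in replicates 5 to 8 (33.3% and 30.9% of all genes), with a median log2 ratio of 0.00. HSPA13 went from a median of 119 to 268 CPM, while HSPA12A, a distant relative of the family, went from 51.3 to 28.3. HSPA6, a strictly stress-inducible HSP70, stood between 4.24 and 6.38 CPM in A101D replicates 1 to 4 and between 15.1 and 17.6 in replicates 5 to 8. It stayed between 2.32 and 3.95 CPM in MeWo. HSPA9, the HSP70 of the mitochondrial matrix, went from a median of 395 to 533 CPM in A101D, opposite in direction to HSPD1 and HSPE1. In MeWo HSPA9 medians were 561 and 559 CPM. HSPA4L, an HSP110 relative, had the smallest ratio of the list in MeWo, with medians of 23.2 and 18.4 CPM.

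HSP90AB1 and the cochaperones of HSP90 mostly lay below in A101D replicates 5 to 8. Of these 16 genes, 9 were higher and 3 lower in MeWo, with a median log2 fold change of 0.34. In A101D, 13 of the 16 lay below in replicates 5 to 8 and 1 above, with a median log2 ratio of -0.68. In MeWo, 8 lay below and 1 above, at a median of -0.13. STIP1, the adaptor that links HSP70 to HSP90, was 1.25 ± 0.12 higher in MeWo on the log2 scale, and CDC37L1, a relative of the kinase adaptor CDC37, was lowest at -1.04 ± 0.05 among genes with a mean of at least 10 CPM. FKBP5, a steroid receptor cochaperone below that mean, was lower still, at -4.65 ± 0.35, with a median of 17.4 CPM in A101D and 0.578 in MeWo. FKBP4, a cochaperone of steroid receptors, went from a median of 130 CPM in A101D replicates 1 to 4 to 60.3 in replicates 5 to 8. SUGT1, a cochaperone of immune receptors and the kinetochore, went from 95.3 to 73.6 CPM. CDC37L1 went from 7.40 to 8.32 CPM in MeWo.

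Small heat shock proteins other than HSPB1 were mostly low. Of 9 listed symbols 8 were found, 5 were tested, and 3 were lower in MeWo with none higher. CRYAB, alpha B-crystallin, lay between 41.1 and 69.2 CPM in A101D, and MeWo libraries held only 4.52 to 7.31 (log2 fold change -3.23 ± 0.17). HSPB8, a partner of BAG3 in the removal of aggregates, followed HSPB1 in its order between the lines. HSPB8 medians were 80.0 and 39.9 CPM in A101D and 68.0 and 64.4 in MeWo, for replicates 1 to 4 and 5 to 8.

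Of 25 other J-domain proteins, 14 were higher and 6 lower in MeWo, with a median log2 fold change of 0.21. In A101D, 11 lay below and 7 above in replicates 5 to 8, with a median log2 ratio of -0.06, where 30.9% of all genes lay below and 33.3% above. DNAJB4, a close relative of DNAJB1, went from a median of 20.0 to 31.0 CPM in A101D and from 27.9 to 25.5 in MeWo. DNAJC9, a histone-binding J-domain protein, went from 17.1 to 9.24 CPM in A101D. DNAJA1, a cytosolic partner of HSPA8, had MeWo medians of 180 and 155 CPM and A101D medians of 238 and 142. DNAJA4 had the largest difference between the lines, 3.68 ± 0.12 on the log2 scale, among those past the threshold, and DNAJB6, a suppressor of aggregation, the lowest, -1.50 ± 0.04. In MeWo, 8 lay below and 2 above, DNAJA4 (33.4 to 38.2 CPM) having the largest ratio.

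Of 13 exchange factors and adaptors of HSP70 tested, 3 were higher and 4 lower in MeWo (38.5% and 40.5% of all genes). In A101D, 6 lay above and 5 below in replicates 5 to 8 (33.3% and 30.9% of all genes). BAG3, an adaptor of HSP70 to selective autophagy and a known heat shock gene, ran from 47.9 to 52.3 CPM in A101D replicates 1 to 4, from 60.0 to 66.5 in 5 to 8 and from 64.1 to 76.9 in MeWo. Its log2 fold change was 0.35 ± 0.07, the largest of those past the threshold, and that of BAG2, an inhibitor of the ligase CHIP, was -1.88 ± 0.20. BAG5 went from a median of 49.3 to 102 CPM in A101D, and BAG2 from 48.9 to 26.5. In MeWo, 3 lay below and 1 above, with BAG2 at 10.8 and 8.83 CPM and GRPEL2 at 37.7 and 42.6.

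The cytosolic chaperonin and its partner prefoldin fold actin and tubulin, and none of their 14 genes lay above in A101D replicates 5 to 8. There, 12 lay below, with a median log2 ratio of -0.50, from CCT5 (medians 492 and 300 CPM) to PFDN5 (193 and 176). In MeWo 7 lay below and none above, from CCT2 (388 and 319 CPM) to CCT4 (288 and 262). Between the lines 5 were higher and 6 lower in MeWo, TCP1 by 0.81 ± 0.13 and PFDN6 by -1.59 ± 0.07 on the log2 scale. Of the 14 mitochondrial chaperones and proteases other than HSPD1 and HSPE1, 6 lay above and 5 below in A101D replicates 5 to 8, with a median log2 ratio of 0.04. GRPEL2, an exchange factor for HSPA9, went from a median of 44.2 to 87.6 CPM, and AFG3L2, a protease of the inner membrane, stood at 98.1 to 109 CPM in the former set and 49.2 to 59.9 in the latter. In MeWo, 2 lay below and 1 above, with TRAP1, the mitochondrial HSP90, at 85.9 and 79.6 CPM. LONP1, the matrix protease, was -0.63 ± 0.11 between the lines and CLPB, a disaggregase, 1.11 ± 0.04. These lists share genes with each other in part, were chosen with results of these data known, and were not tested as sets.

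**Figure D5:**
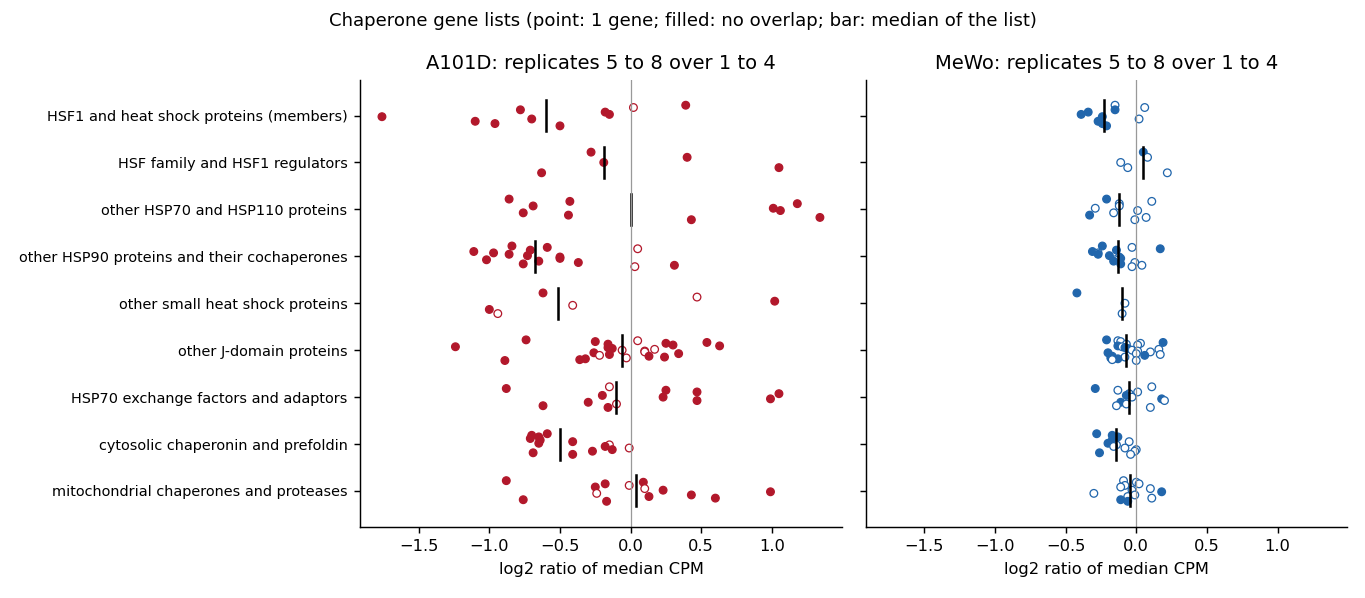
Log2 ratio of median CPM, replicates 5 to 8 over 1 to 4, for each gene of 9 chaperone lists in A101D and in MeWo; filled points had no overlap, open points overlapped, and black bars are medians of the tested genes of a list. In A101D the medians are -0.60 for the members, -0.68 for the HSP90 group, -0.50 for the chaperonin group and 0.04 for the mitochondrial group, and in MeWo points stay closer to 0.

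The genes outside the members with the most similar profiles were ranked, from 10143 genes with a mean of at least 10 CPM. The measure was Pearson correlation of log2 CPM over the 16 libraries after the mean of each line was subtracted. The members were left out of the ranking. Within A101D (8 libraries), HSPA8 correlated at 1.00 with the members HSP90AA1 and HSPD1 and at -0.99 with DNAJB1. Outside the members, the genes most like HSPA8 were ELOVL5, a fatty acid elongase (r = 0.998), GYG1, which primes glycogen synthesis (0.998), and SKP2, a ubiquitin ligase subunit of the cell cycle (0.998). SKP2 went from a median of 86.0 CPM in A101D replicates 1 to 4 to 30.8 in replicates 5 to 8. For HSPD1 they were PSMD1, a proteasome subunit (0.998), SYNCRIP, an RNA-binding protein (0.998), and VCP, an unfolding ATPase (0.997). For DNAJB1 they were DNAJC5, a J-domain protein of vesicles (0.976), DAB2IP, a GTPase-activating protein (0.975), and NOCT, a circadian phosphatase (0.975). All of these values rest mainly on the step between the A101D sets, which the libraries share, and say nothing of shared control.

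Several members have copies elsewhere in the genome. Among 50-base words of the transcripts, 15.4% of HSPA8, 17.5% of HSP90AA1, 24.8% of HSPD1, 27.2% of HSPE1, 11.4% of HSPB1 and 2.57% of DNAJB1 occurred in another gene, and none of HSF1 or HSPH1. The summed copies of HSPA8, named by symbol, reached at most 0.172% of the HSPA8 value in any library, and those of HSPD1 at most 0.935%. Copies of HSPE1 reached up to 5.00% of the HSPE1 value. Reads that match both a member and a copy may have been dropped, so low values of the copies cannot show that the members' counts were unaffected. HSPE1-MOB4, a readthrough gene that shares exons with HSPE1, had at most 0.0618 CPM. HSPE1 lies within the annotated span of HSPD1 on the other strand. Since the strand setting of the counting is not given in the sources used here, how reads in exons of both genes were counted is not known.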

How the data were processed

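RNA-seq counts of 16 libraries were used, 8 from each line. Per the submitters' processing notes, reads were trimmed with Trimmomatic 0.39-1, aligned with STAR 2.7.1a to GRCh38 and counted with featureCounts 2.0.0. The sources used here give no annotation release, strand setting or treatment of multi-mapping reads. The authors deposited whole-number counts, not normalized, in cells that hold an Ensembl identifier followed by its count. As deposited, the columns did not pass a check for plain counts, and limma-voom was planned for that case in place of negative binomial tests, which were not run. The cells were split into whole numbers, so the format alone did not prevent such tests.

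Totals were scaled with TMM factors (trims of 30% and 5%). A gene was tested if it reached the CPM of 10 counts at median depth (0.298 over all libraries) in as many libraries as a line has in the comparison, and 15 counts in all. MeWo was compared with A101D by voom and robust moderation in limma 3.58.1 (R 4.3.3), on all 16 libraries and on replicates 1 to 4 and 5 to 8 apart, with Benjamini-Hochberg adjustment over all genes and a threshold of 0.05. This step was tested on simulated data in which all libraries of a line had the same means. The simulation held no step between replicates 1 to 4 and 5 to 8, so it does not cover the split in A101D. Replicate sets within a line were described, not tested, over genes that reached that CPM in at least 4 libraries of the line. Likeness used a prior count of 2, and positions and exon lengths were those of GENCODE v29.

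The members, the other lists and the split of replicates were chosen with earlier results of these data known. Named genes are all members, HSPA6, BAG3, HSP90AB1, HSF2, HSPA9 and CRYAB, and from each other list the extremes of the line difference (past the threshold) and of the ratio of medians (no overlap) at a mean of at least 10 CPM. The 3 genes outside the members most like DNAJB1, HSPA8 and HSPD1 and the lineage markers were added. TECR, VWF, FKBP5, HSPE1-MOB4 and the markers near 0 were named after their values were seen. Other settings tried were 3 other scalings (median of ratios, upper quartile, totals alone), no filter, a filter at 1 CPM, limma-trend, a threshold of 0.01, a replicate block, HSPA1A with HSPA1B summed, and leaving out libraries.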

Additional observations from a re-analysis of the deposited data

Results flagged for a closer look

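Among 60 groups of libraries checked for the 10 members (8 libraries of a line, or 4 of a replicate set), 4 held a library far from the others, where chance gives about 3. In MeWo replicates 1 to 4, replicate 4 stood apart for HSF1 (117 CPM, others 111 to 112), HSPH1 (377 CPM, others 414 to 418) and DNAJB1 (176 CPM, others 193 to 195). In MeWo replicates 5 to 8, replicate 6 stood apart for HSF1 (108 CPM, others 116 to 117).

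For 3 named genes the replicate sets moved in opposite directions without overlap in the lines, which was not tested. The log2 ratio of medians, replicates 5 to 8 over 1 to 4, was 0.63 in A101D and -0.13 in MeWo for DNAJB4, -0.28 and 0.05 for HSBP1, and -0.32 and 0.04 for S100B, a marker of the melanocyte lineage. For 4 named genes the lines lay on opposite sides without overlap in the 2 sets, and the difference between the sets was not tested either. The log2 fold change (MeWo minus A101D) in replicates 1 to 4 and 5 to 8 was 0.64 and -0.42 for BAG5, 0.49 and -0.26 for DNAJB4, -0.22 and 0.18 for HSBP1, and -0.23 and 0.75 for HSPB8.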

How the results depend on the processing

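The direction of every member's line difference held under all alternatives run. With a threshold of 0.01, 4 members were higher and 1 lower in MeWo over all libraries. Calls that changed were those of HSPA8, DNAJB1, HSPD1 and HSPE1 in replicates 1 to 4, and leaving out single libraries there gave 4 to 8 members higher. Among other named genes, CCT2 in replicates 1 to 4 went to -0.02 without A101D replicate 1 or 4, and its values without single libraries ran up to 0.09. CCT5, which has no difference there, went to 0.00 with upper-quartile factors, no filter or without MeWo replicate 1, 0.01 without replicate 3 and 0.04 without replicate 4 (MeWo), and as low as -0.06 without single A101D libraries. HSPA12A lost its call over all libraries without MeWo replicate 2 (adjusted p = 0.0504, limma-voom). In A101D, HSPA1A overlapped between replicate sets under median-of-ratios factors, and HSPA1A and HSPA1B did under upper-quartile factors and total counts.

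With the replicate number as a block, 15327 genes passed over all libraries (15207 without it), and HSPA8 was called in replicates 1 to 4 (adjusted p = 0.0285, limma-voom). No other member's call changed under the block. Same-numbered libraries of the lines correlated at 0.05 to 0.17 in their deviations from the line means, and numbers 1 and 6 correlated best with their own number. From the means of line and replicate set the correlations were -0.03 to 0.09, with numbers 2, 4 and 8 best with their own. Since not every pair was over 0.1, the numbers were not taken as pairs. At these depths the lowest member, HSPA1B, had at least 24.1 CPM in every library.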
